A study of Mus musculus with 9 samples.

Results

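The genes of fatty acid (FA) and triglyceride (TG) synthesis were followed in mouse liver as a group of 35 genes out of the 51912 listed. The 35 were named one by one for their role in the pathway, with no threshold on their values. They were sorted by step into 7 genes of FA synthesis and its carbon supply, 5 regulators and co-regulated genes, 7 genes of chain elongation, 4 of desaturation and 12 of esterification to TG. Livers came from 5 mice given an antisense oligonucleotide (ASO) against apoC-III and 4 given a control ASO, and both groups received 50 mg/kg/week for 8 weeks. All 9 mice carried *Apoe*-/- *Ndst1* f/f *Alb-Cre*+, a genotype that removes apoE everywhere and uses the albumin promoter to delete the heparan sulfate sulfotransferase NDST1 in hepatocytes, so the controls lack both as well. The livers were taken from fasted mice, and the sources used here give neither sex, age nor diet beside the RNA sequencing. The comparison of the ASO groups asks whether lowering apoC-III in mice without apoE changes what the liver transcribes for making its own lipid.

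Hepatocytes turn surplus carbohydrate into fat by exporting citrate from mitochondria, splitting it to acetyl-CoA and building palmitate from malonyl-CoA. Palmitate is lengthened and given double bonds in the endoplasmic reticulum, and acyl chains are then placed on glycerol phosphate to give phosphatidic acid, diacylglycerol and TG for storage or VLDL. Insulin acts on this program through SREBP-1 (*Srebf1*) and glucose through ChREBP (*Mlxipl*), and in mouse liver many of its transcripts also follow feeding and the time of day.

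Expression was measured as TPM (transcripts per 1000000), each gene's share of its library after correction for length. Between 64.0% and 83.6% of the deposited TPM belonged to the 7SL RNA, 8.43% to 27.7% to mitochondrial ribosomal RNA and only 1.94% to 8.64% to nuclear protein-coding genes. Protein-coding genes were therefore rescaled to a total of 1000000 per liver and divided by factors that align the typical gene between livers, and a value on this scale is called normalized TPM here. How deeply each liver was sequenced cannot be read from TPM, and counting error is therefore unknown. Control ASO replicate 4 stood apart, with 63.0% of its protein-coding TPM in major urinary protein (Mup) genes against 14% to 44.1% in the other 8 livers and the smallest factor, 0.496 against 0.930 to 1.44. ApoC-III ASO replicates 1 to 3 stood apart in clock genes, as described with the members below. The target of the ASO, *Apoc3*, was at 379, 431, 334, 623 and 486 normalized TPM in apoC-III ASO livers and at 3372, 3170.3, 3481 and 4293 in controls. Its mean was 87.4% lower, with p = 0.0159 in an exact permutation test (two-sided), the smallest value that 5 against 4 livers allow, and a log2 fold change of −3.01 in limma (SE 0.23, adjusted p = 3.83e-04). *Apoe* was at 23.2 to 66.4 and *Ndst1*, of which other liver cells keep intact copies, at 4.81 to 11.6 normalized TPM over the 9 livers.

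Liver identity was checked with markers of its cell types. The 9 hepatocyte markers were all present, with albumin (*Alb*) at 15309 to 39725 normalized TPM, and 0 of 9 had an unadjusted p under 0.05 between the groups. Of these markers, 7 were lower and 2 higher in apoC-III ASO livers, with a median log2 fold change of −0.26. Their summed level was 24808 to 54376 normalized TPM in the apoC-III ASO group against 33000.2 to 44623 in controls. Adipocyte markers, which matter here because fat cells also make FA and TG, were near 0: *Adipoq* and *Lep* were at 0 in all 9 livers, and the 6 markers summed to 0.376 to 4.57 against 0.559 to 4.79. Stellate cell markers summed to 97.2 to 129 in the apoC-III ASO group against 118 to 234 in controls, with 5 of 6 lower and 2 (*Lrat* and *Dcn*) under an unadjusted p of 0.05 in limma. The part of stellate cells in the differences given next was not tested. In bulk liver RNA, fewer cells of a type and less RNA per cell cannot be told apart. The markers of cholangiocytes (3 of 5 tested, sums of 37.9 to 81.4 against 41.0 to 121), of macrophages and leukocytes (6 of 6 tested, 72.7 to 113 against 71.4 to 117) and of endothelial cells (6 of 6 tested, 82.1 to 124 against 71.1 to 121) held 0 genes below 0.05 by limma's unadjusted p.

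Most of the 35 genes were plainly expressed. The mean over the 9 livers was highest for *Mlxipl* at 582 normalized TPM, followed by *Scd1* at 536, *Lpin2* at 441, *Lpin1* at 437 and *Tecr* at 319. The lowest were *Mogat1* at 2.72, *Scd2* at 1.17 and *Pnpla3* at 0.15. *Pnpla3*, which encodes a lipid droplet protein with acyl hydrolase activity, was at 0.14 to 0.298 in the apoC-III ASO group and at 0 to 0.222 in controls. It was under the minimum mean of 1 normalized TPM needed for a test, so 34 of the 35 were tested among 11954 genes.

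**Figure D1:**
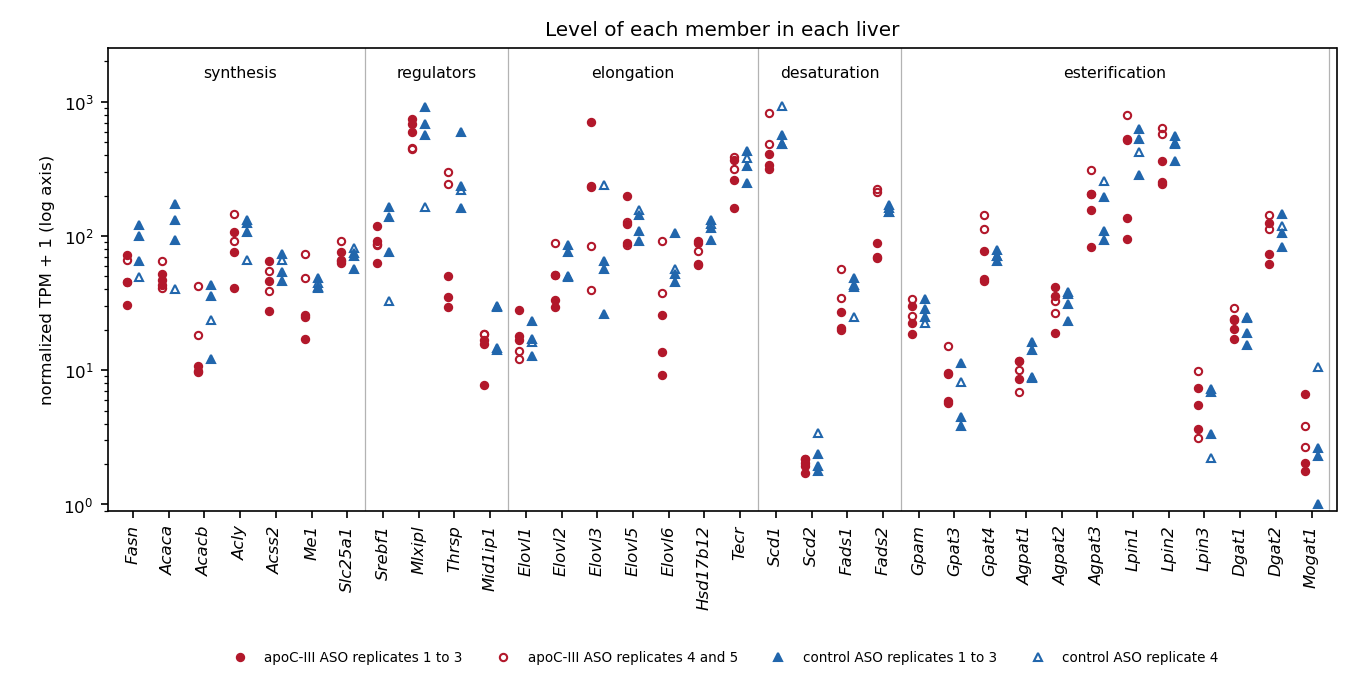
Normalized TPM + 1 (log axis) of the 34 tested genes in each of the 9 livers, ordered by step. Circles are apoC-III ASO livers (filled, replicates 1 to 3; open, replicates 4 and 5) and triangles control ASO livers (filled, replicates 1 to 3; open, replicate 4), and in *Thrsp* the filled circles at 28.7 to 49.7 lie apart from all other symbols at 161 or more.

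Between the ASO groups, 0 of the 34 genes passed limma's threshold (adjusted p under 0.05 by the Benjamini-Hochberg method, together with a change over 1.5-fold), where 2 of all 11954 genes did (0.0167%, *Apoc3* and *Anpep*). At an unadjusted p under 0.05 there were 4 members of 34 (11.8%), all of them lower in apoC-III ASO livers, where 5.56% of all genes had such a p, 2.58% in the lower and 2.99% in the higher direction. Of the 34, 23 were lower and 11 higher (67.6% lower, where 50.2% of all genes were lower), and the median log2 fold change was −0.26, beside −0.00122 over all genes tested. The hepatocyte markers also had a median of −0.26, with 7 of 9 lower. Directions are those of the log2 fold change, and in 3 of the 34 (*Srebf1*, *Elovl5* and *Mogat1*) the group means on the linear scale had the other order. The members' adjusted p-values were 0.864 or more. The count of 4 depended on single livers: it was 10 without apoC-III ASO replicate 4, where the share of all genes was 7.02%. It was 2 without apoC-III ASO replicate 1 (5.43% of all genes), apoC-III ASO replicate 2 (4.81%) or control ASO replicate 3 (5.71%), and 1 without control ASO replicate 2 (5.64%).

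**Figure D2:**
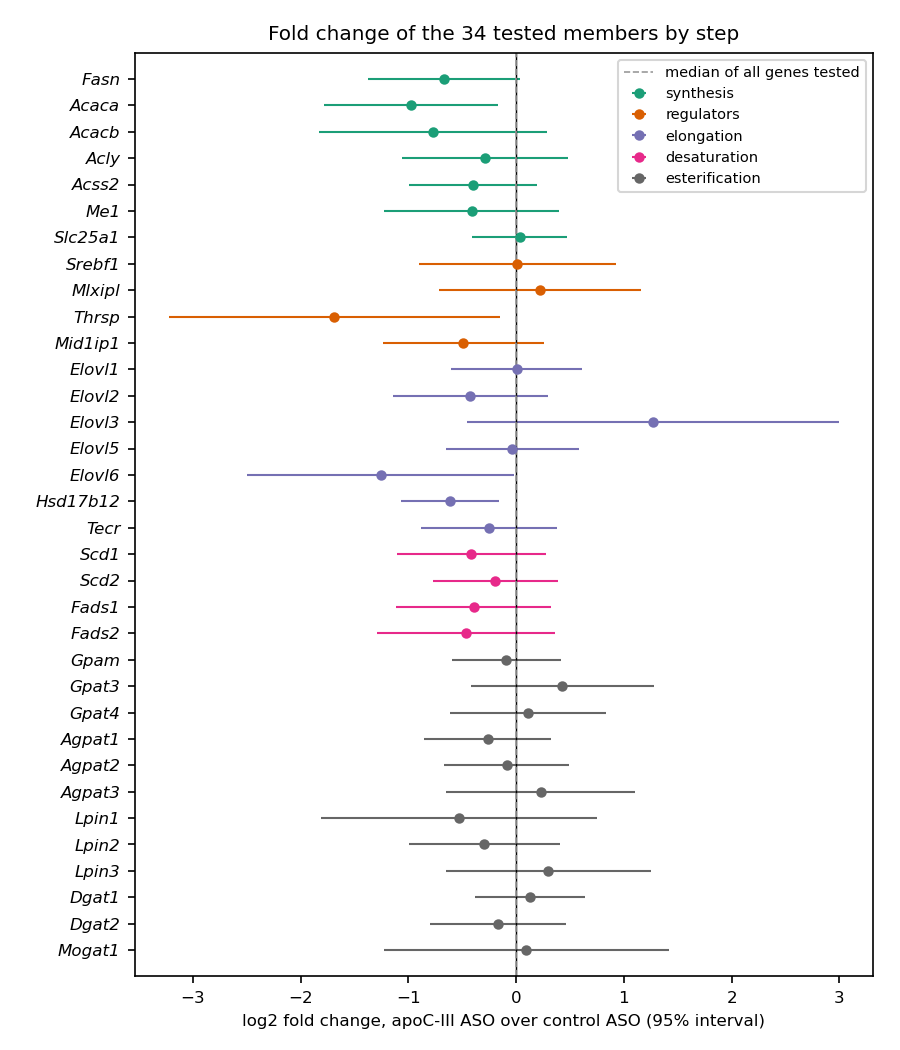
Log2 fold change (apoC-III ASO over control ASO) of each tested gene with its 95% interval from limma, colored by step, and the median of all genes tested as a dashed line. The intervals of *Acaca*, *Thrsp*, *Elovl6* and *Hsd17b12* lie below 0, while *Elovl3* has the highest estimate at 1.27 with an interval of −0.45 to 3.0.

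Among the genes of synthesis and carbon supply, 6 of 7 were lower in apoC-III ASO livers, 1 had an unadjusted p under 0.05 and the median log2 fold change was −0.41. *Fasn*, the synthase that builds palmitate, was at 29.8, 44.3, 71, 65.2 and 44.2 normalized TPM in apoC-III ASO replicates 1 to 5 and at 99.1, 119.7, 64.6 and 48.1 in control ASO replicates 1 to 4. The 2 highest livers were controls, but control replicates 3 and 4 lay among the apoC-III ASO livers. The means were 50.9 ± 16.9 (SD, n = 5) against 82.9 ± 32.4 (SD, n = 4), and the log2 fold change was −0.67 (SE 0.32, 95% interval −1.38 to 0.0373), with an adjusted p of 0.884 in limma. *Acaca* (chr11:84129672-84401651, plus strand, GRCm38) encodes the cytosolic acetyl-CoA carboxylase that supplies *Fasn* with malonyl-CoA. Its values were 45.7, 51.4, 42.1, 64.1 and 40.0 in apoC-III ASO livers and 92.8, 172, 131 and 39.2 in control ASO livers. Control replicates 1 to 3 were above every apoC-III ASO liver, whereas control replicate 4 was the lowest of all 9. The means were 48.7 ± 9.64 (SD, n = 5) against 109 ± 56.3 (SD, n = 4), which gave −0.97 on the log2 scale (SE 0.37), with p = 0.0217 in limma (adjusted p = 0.872) and p = 0.0952 in an exact permutation test. Without control replicate 4 the log2 fold change of *Acaca* was −1.39 (limma, adjusted p = 0.394) and that of *Fasn* was −0.90 (limma, adjusted p = 0.852).

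*Acly*, the ATP citrate lyase that gives cytosolic acetyl-CoA and the synthesis gene with the highest mean, was at 105, 39.9, 74.6, 145 and 90.1 in apoC-III ASO livers and at 124, 130.4, 105 and 64.9 in control ASO livers. The controls lay within the range of the apoC-III ASO livers (log2 fold change −0.29, SE 0.35). The other acetyl-CoA source, *Acss2*, which activates acetate, ran from 26.4 to 64.5 against 45.1 to 71.8 with a log2 fold change of −0.40 (SE 0.27). *Acacb* encodes the carboxylase at the mitochondrial membrane, whose malonyl-CoA restrains FA oxidation. It was at 8.75 to 41.3 against 11.1 to 42.2 (−0.77, SE 0.48), and *Acaca* exceeded *Acacb* in 8 of 9 livers, by ratios of up to 8.35, with apoC-III ASO replicate 5 at 0.969. *Me1*, the cytosolic malic enzyme and a source of NADPH, spread from 16.2 to 71.8 in apoC-III ASO livers but only from 40.2 to 47.8 in control ASO livers (−0.41, SE 0.37). The citrate carrier *Slc25a1* was the exception in sign, with 71.4 ± 11.9 (SD, n = 5) against 69.6 ± 10.2 (SD, n = 4) and a difference of 0.0349 on the log2 scale (SE 0.20, 95% interval −0.40 to 0.47).

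Of the 4 regulators tested, 2 had a log2 fold change below 0 and 2 above, with a median of −0.24. *Srebf1*, the gene of SREBP-1, was at 119, 62, 90.3, 84.5 and 86.2 normalized TPM in apoC-III ASO livers and at 165, 139, 74.4 and 31.7 in control ASO livers. Controls held both the highest and the lowest values, and the log2 fold change was 0.0104 (SE 0.42, 95% interval −0.90 to 0.92). The means were 88.3 ± 20.2 (SD, n = 5) against 102 ± 60.4 (SD, n = 4), so the sign of the difference depended on the scale. *Mlxipl*, the gene of ChREBP and the most abundant of the 35, was at 594, 683, 744, 449 and 447 in apoC-III ASO livers and at 680.0, 916, 559 and 164 in controls, where control replicate 4 was again the lowest liver. Its log2 fold change was 0.22 (SE 0.43). *Mlxipl* exceeded *Srebf1* in every liver, by 4.13-fold to 11-fold, a ratio within a liver that no scaling between livers can alter. Without control replicate 4, all 4 regulators had a log2 fold change below 0 (median −0.57).

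*Thrsp* (chr7:97412938-97417730, minus strand), the gene of the Spot 14 protein that accompanies lipogenesis, had the lowest log2 fold change of the 34. It was at 28.7, 49.7, 33.8, 299.8 and 242 normalized TPM in apoC-III ASO livers and at 235, 589.9, 161 and 218 in control ASO livers. ApoC-III ASO replicates 1 to 3 were below all other livers, while replicates 4 and 5 lay among the controls. The means were 131 ± 129.7 (SD, n = 5) against 301 ± 195 (SD, n = 4), which gave −1.68 on the log2 scale (SE 0.70, 95% interval −3.22 to −0.15), with p = 0.0346 in limma (adjusted p = 0.878) and p = 0.159 in an exact permutation test. Its paralog *Mid1ip1*, which promotes polymerization of acetyl-CoA carboxylase, was at 6.73 to 17.5 against 13.1 to 29.1 (−0.49, SE 0.34).

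Elongation held the widest range of log2 fold changes, from −1.26 for *Elovl6* to 1.27 for *Elovl3*, with 5 of 7 genes lower, 2 at an unadjusted p under 0.05 and a median of −0.25. *Elovl6* (chr3:129532355-129638495, plus strand) lengthens palmitate to stearate and was at 8.14, 24.8, 12.7, 91 and 36.3 normalized TPM in apoC-III ASO livers and at 44.2, 104, 51.3 and 55.9 in control ASO livers. As with *Thrsp*, replicates 1 to 3 of the apoC-III ASO group were below all other livers but replicate 4 was the second highest. The log2 fold change was −1.26 (SE 0.57), with p = 0.0475 in limma (adjusted p = 0.878) and p = 0.127 in an exact permutation test. *Elovl3* (chr19:46131897-46135694, plus strand), which makes very long saturated and monounsaturated chains, had the opposite order. It was at 232, 234, 709, 38.8 and 82.8 in apoC-III ASO livers and at 64.3, 25, 55.3 and 237 in control ASO livers, so apoC-III ASO replicates 1 to 3 and control replicate 4 were the high livers. Its means were 259 ± 266 (SD, n = 5) against 95.4 ± 95.8 (SD, n = 4), which gave 1.27 on the log2 scale (SE 0.79, adjusted p = 0.90 in limma). The ratio of *Elovl3* to *Elovl6* within a liver was 28.6, 9.45 and 55.7 in apoC-III ASO replicates 1 to 3 and 0.242 to 4.24 in the other 6 livers.

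*Hsd17b12* (chr2:94032689-94157964, minus strand), the ketoacyl-CoA reductase of the elongation cycle, was the 1 member of 34 whose groups did not overlap on normalized TPM. This count is near the share of all genes tested, of which 1.83% did not overlap (0.912% with apoC-III ASO lower). Its values were 90.7, 59.7, 87.7, 75.8 and 61.2 normalized TPM in apoC-III ASO livers and 129.7, 93.1, 114 and 121 in control ASO livers. The groups overlapped in deposited TPM and before division by the factors, but on normalized TPM each apoC-III ASO liver lay below the lowest control. The means were 75 ± 14.5 (SD, n = 5) against 114 ± 15.6 (SD, n = 4), which gave −0.61 on the log2 scale (SE 0.21, 95% interval −1.07 to −0.15), with p = 0.0132 in limma (adjusted p = 0.864) and p = 0.0159 in an exact permutation test. *Tecr*, the enoyl-CoA reductase that closes the same cycle, was the most abundant elongation gene, at 259.9, 159.8, 367, 387 and 313 in apoC-III ASO livers and 328, 427, 247 and 379.7 in control ASO livers. These values overlapped (−0.25, SE 0.29). *Elovl2* and *Elovl5*, which lengthen polyunsaturated FAs, had log2 fold changes of −0.43 (SE 0.33) and −0.0372 (SE 0.28), and *Elovl1*, which makes very long saturated chains, one of 0.00750 (SE 0.28).

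All 4 desaturation genes had lower means in apoC-III ASO livers, with a median log2 fold change of −0.40, and 0 of 4 had an unadjusted p under 0.05 in limma. *Scd1*, the stearoyl-CoA desaturase that makes oleate, was at 409, 334, 316, 825 and 481 normalized TPM in apoC-III ASO livers and at 564, 487, 482 and 924 in control ASO livers. Replicates 1 to 3 of the apoC-III ASO group were the 3 lowest, and replicate 4 of each group was its highest. This gave −0.41 on the log2 scale (SE 0.32, adjusted p = 0.914 in limma). *Fads2*, which starts the desaturation of polyunsaturated FAs, was at 68.5, 67.1, 86.9, 212 and 221 in apoC-III ASO livers and at 169, 149, 161 and 149 in control ASO livers. Its controls lay close together, while apoC-III ASO livers lay on both sides of them, with replicates 1 to 3 below and 4 and 5 above (−0.46, SE 0.38, adjusted p = 0.919 in limma). *Fads1*, the next desaturase of that route, was at 18.9 to 55.7 against 24 to 47.3 (−0.39, SE 0.33). *Scd2* was near the minimum for a test at 0.709 to 2.38 (−0.19, SE 0.27), and *Scd1*, in the same gene cluster on chromosome 19, exceeded it by 342-fold to 783-fold. Reads could be divided between these similar genes, so the value of *Scd2* is uncertain.

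Esterification was split evenly, with 6 of 12 genes lower, 6 higher, 0 at an unadjusted p under 0.05 in limma and a median of 0.00309, the median nearest to that of all genes among the steps. The smallest p belonged to *Gpat3*, a glycerol phosphate acyltransferase of the endoplasmic reticulum, at 4.89, 4.66, 8.41, 8.47 and 14.3 in apoC-III ASO livers and 2.84, 3.5, 10.4 and 7.21 in control ASO livers (0.43, SE 0.39, adjusted p = 0.936 in limma). Both groups contained low and high livers. The other acyltransferases of this first reaction were *Gpat4* at 45.4 to 141 against 64.1 to 77.3 (0.11, SE 0.33) and the mitochondrial *Gpam* at 17.6 to 32.8 against 21.5 to 32.7 (−0.0889, SE 0.23). *Gpat4* exceeded *Gpam* in all 9 livers by 1.56-fold to 5.76-fold.

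*Agpat1*, *Agpat2* and *Agpat3*, which add the next acyl chain, had log2 fold changes of −0.26 (SE 0.27), −0.0873 (SE 0.26) and 0.23 (SE 0.40). *Agpat3* was the most abundant of them, at 81.1 to 309.9 normalized TPM over the 9 livers. The lipins remove the phosphate from phosphatidic acid. *Lpin1*, with the largest change of this step, was at 136, 517, 93.3, 525 and 800.1 in apoC-III ASO livers and at 282, 530.5, 627 and 418 in control ASO livers. ApoC-III ASO replicates 1 and 3 were the 2 lowest and replicate 5 the highest, so that the group enclosed all controls (−0.53, SE 0.59, 95% interval −1.81 to 0.75, adjusted p = 0.948 in limma). *Lpin2*, the most abundant gene of the step, was at 241, 363, 251, 639 and 577 in apoC-III ASO livers and at 487, 363, 552 and 494 in controls, with replicates 1 and 3 again lowest (−0.29, SE 0.32). *Lpin3* was far less abundant at 1.21 to 8.81 (0.30, SE 0.44).

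The last reaction, the acylation of diacylglycerol to TG, is shared by 2 unrelated enzymes. *Dgat2* was at 60.8 to 142 against 81.4 to 144 (−0.17, SE 0.29, 95% interval −0.79 to 0.46). *Dgat1* was at 16 to 28 against 14.4 to 23.9 (0.13, SE 0.23, 95% interval −0.38 to 0.64), and *Dgat2* exceeded it in every liver by 3.74-fold to 7.21-fold. *Mogat1*, which acylates monoacylglycerol, was at 0 to 9.49 and at 0 in 1 control liver (0.0935, SE 0.60).

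**Figure D3:**
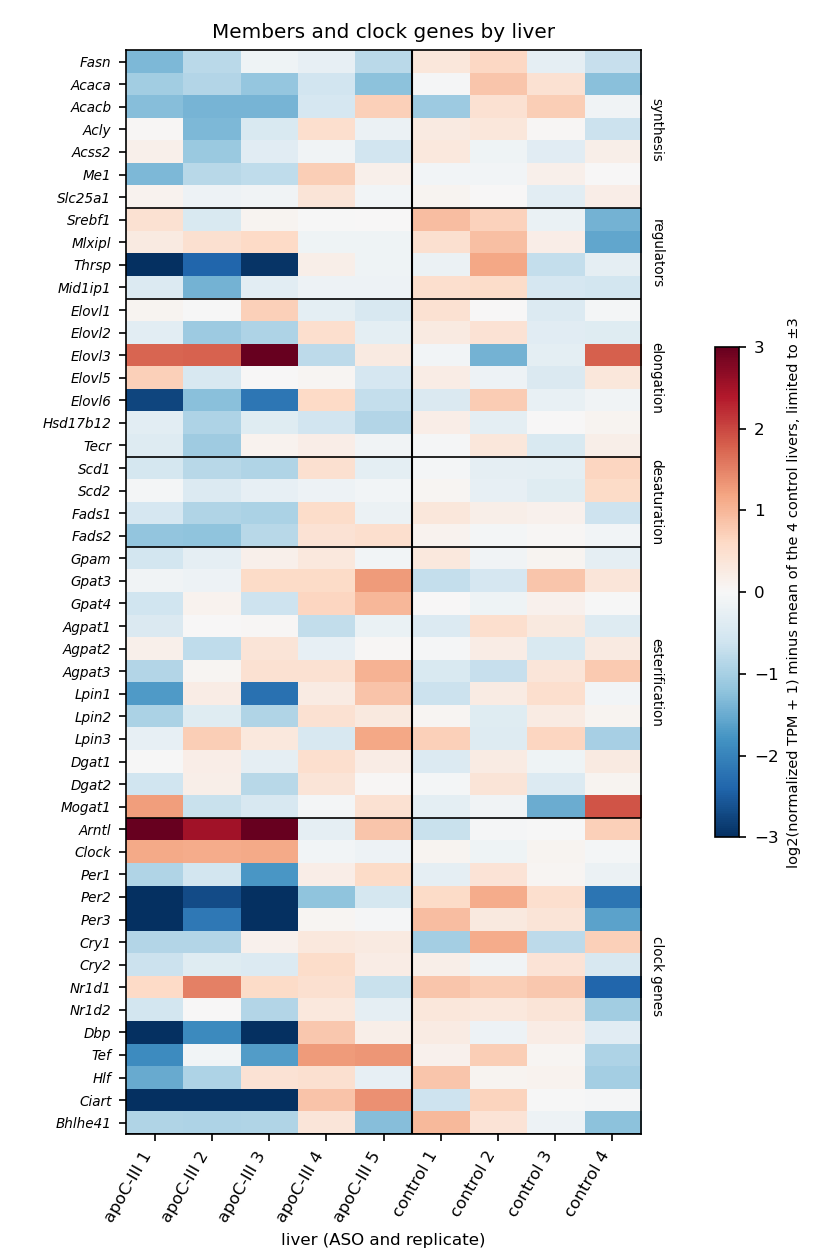
Log2(normalized TPM + 1) of each tested member and clock gene (vertical, grouped by step) in each liver (horizontal), minus the mean of the 4 control livers; colors stop at 3 in either direction. ApoC-III ASO replicates 1 to 3 are blue in *Thrsp*, *Elovl6*, *Fads2* and *Ciart* and red in *Elovl3* and *Arntl*, while replicates 4 and 5 lie nearer the controls there.

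The split of apoC-III ASO replicates 1 to 3 from replicates 4 and 5 was also present in 7 of the 14 tested circadian clock genes, which keep the daily rhythm of liver transcription. In *Arntl* and *Clock* replicates 1 to 3 were above, and in *Ciart*, *Dbp*, *Per1*, *Per2* and *Per3* below, all of the other 6 livers. The same order was not seen in *Cry1*, *Cry2*, *Nr1d1*, *Nr1d2*, *Tef*, *Hlf* and *Bhlhe41*. Of the 34 members, 7 had replicates 1 to 3 below the other 6 livers (*Thrsp*, *Elovl6*, *Scd1*, *Fads2*, *Me1*, *Acacb* and *Lpin2*) and 0 had them above, where 6.94% of all genes tested had them outside on either side. *Lpin2* is counted by a near tie, with 362.6 normalized TPM in apoC-III ASO replicate 2 and 363.0 in control replicate 2. The split was chosen after the values were seen, so these counts are a description. *Arntl*, the activator gene of the clock, was at 17.7, 11.1, 30.9, 0.74 and 2.75 normalized TPM in apoC-III ASO livers and at 0.32, 1.06, 1.11 and 2.46 in control ASO livers. *Ciart*, a repressor gene of opposite phase, was at 3.69, 3.84, 3.11, 198 and 282 in apoC-III ASO replicates 1 to 5 and at 69.9, 173, 109 and 106 in control replicates 1 to 4. *Clock* was at 24.9 to 25.7 in replicates 1 to 3 and at 9.91 to 11.9 in the other 6 livers. *Dbp*, an output gene of the clock, was at 2.70 to 22.2 in replicates 1 to 3 and at 68.2 to 152 elsewhere. *Per2*, whose product represses the clock, was at 3.35, 8.31, 4.81, 25.1 and 40.5 in apoC-III ASO replicates 1 to 5 and at 88.1, 129.7, 83.7 and 12.1 in control replicates 1 to 4. Between the ASO groups, 11 of these 14 genes (of 15 listed) were lower, 0 were called and 3 (*Per2*, *Arntl* and *Per3*) had an unadjusted p under 0.05 in limma. Without apoC-III ASO replicates 1 to 3, 4 of the 14 were lower and 0 called by limma, and without replicates 4 and 5, 11 of 15 were lower and 1 (*Ciart*) was called, with 2 and 9 at an unadjusted p under 0.05. Summed over the list, livers ranged from 197 to 1065 normalized TPM in the apoC-III ASO group and from 394 to 913 in the control ASO group. *Npas2*, under the minimum for a test with all livers, had the order of *Arntl* and *Clock*. It was at 2.12, 0.513 and 4.52 in apoC-III ASO replicates 1 to 3 and at 0 to 0.143 in the other 6 livers, with 3 livers at 0. The labels give no time of death, and the part of these clock genes in the differences of the members was not tested.

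**Figure D4:**
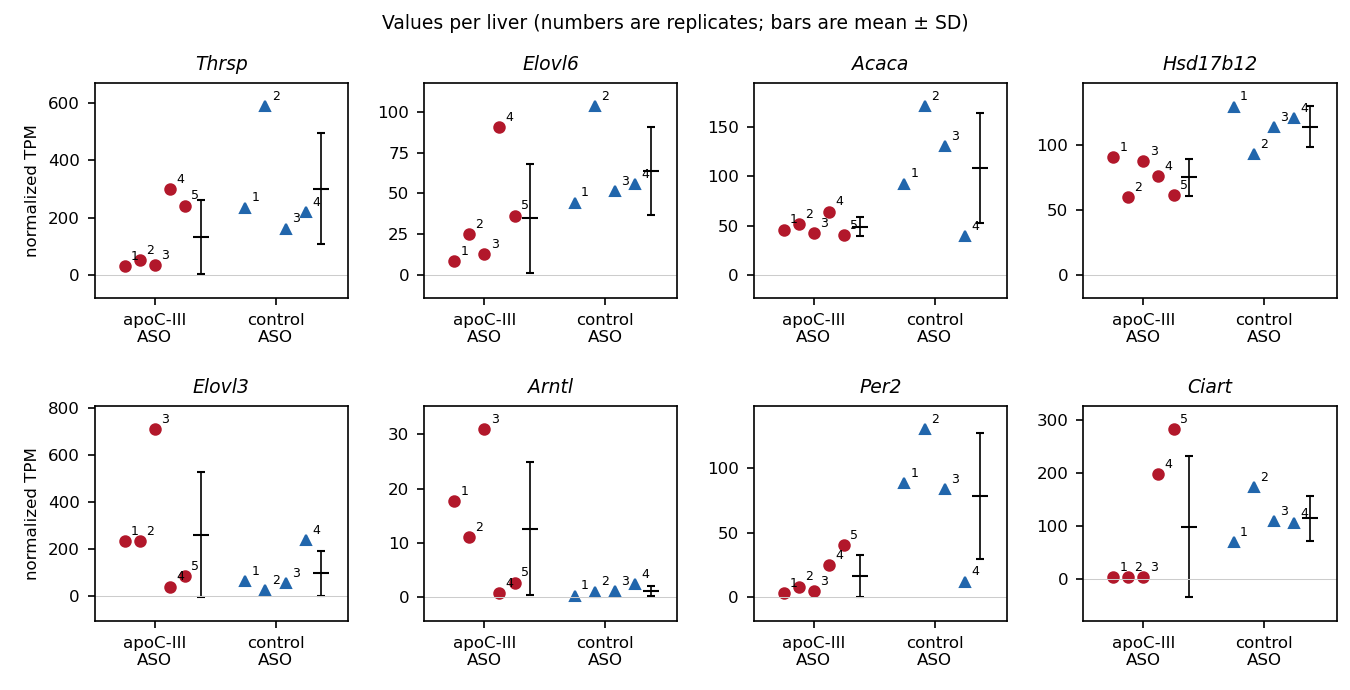
Normalized TPM of 5 members and 3 clock genes per liver; circles are apoC-III ASO and triangles control ASO livers, numbers are replicates, and bars are the mean ± SD (n = 5 and n = 4). In *Thrsp* and *Elovl6*, as in *Ciart*, apoC-III ASO replicates 1 to 3 are the 3 lowest livers, whereas in *Hsd17b12* all 5 apoC-III ASO livers (59.7 to 90.7) are below the controls (93.1 to 129.7).

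The members' counts were therefore repeated without the livers that stood apart, the apoC-III ASO livers having been chosen after seeing the data. Without apoC-III ASO replicates 1 to 3, which leaves 2 livers against 4, 14 of 34 members were lower (where 49.9% of all genes were) and the median was 0.0953 beside 0.00124 over all genes. In that fit 2 members had an unadjusted p under 0.05 in limma (5.65% of all genes did), *Hsd17b12* at −0.73 and *Gpat4* at 0.82, and 0 of 11938 genes were called (0.0%), *Apoc3* having an adjusted p of 0.103. *Thrsp* was then at 0.0264, *Elovl6* at −0.0642, *Elovl3* at −0.26, *Acaca* at −0.90 and *Fasn* at −0.53. Without apoC-III ASO replicates 4 and 5, 26 of 34 were lower (50.2% of all genes) and 12 had an unadjusted p under 0.05 in limma (9.62% of all genes), 11 of them lower. *Thrsp* was then at −2.83, *Elovl6* at −2.05, *Fads2* at −1.08 and *Elovl3* at 2.30, and 0 members were called by limma (4 of all genes, 0.0334%), the lowest adjusted p being 0.0955 for *Thrsp*. Without control ASO replicate 4, 25 of 34 were lower (50.4% of all genes) and 5 had an unadjusted p under 0.05 in limma (5.32% of all genes), with *Fasn* and *Elovl3* (1.87) added and *Elovl6* no longer among them, and 0 members were called (3 of all genes, 0.0252%). With all livers included, the groups of *Hsd17b12* did not overlap on normalized TPM. Leaving livers out could not make these groups overlap, so the 3 sets of livers are no further test of their separation. The members without overlap numbered 2 without control ASO replicate 4 (3.92% of all genes), 4 without apoC-III ASO replicates 1 to 3 (15.3%) and 8 without replicates 4 and 5 (10.9%). Other scalings and weights called 0 members as well. In deposited TPM, 16 of 27 tested members were lower (29.2% of all genes), 2 had an unadjusted p under 0.05 (2.01%) and 0.223% of all genes were called by limma, *Apoc3* not being one of them (−2.62, adjusted p = 0.104). With factors from all genes, 20 of 25 were lower (53.7%), 3 had such a p (5.52%) and 0.0451% of all genes were called. With array weights, 24 of 34 were lower (50.6%), 7 had such a p (7.48%) and 0.0251% of all genes were called. Rescaling to 1000000 without the factors left 8 of 34 members lower, beside 1444 of all 12035 genes, with the median of all genes at 0.41. *Hsd17b12* had an estimate between −0.76 and −0.14 under all 28 alternatives tried. It was 1 of 6 members whose sign never changed, with *Acaca* (−1.40 to −0.51), *Fasn* (−0.99 to −0.20), *Elovl6* (−2.05 to −0.0642), *Mid1ip1* (−0.71 to −0.0549) and *Gpat3* (0.10 to 0.92).

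**Figure D5:**
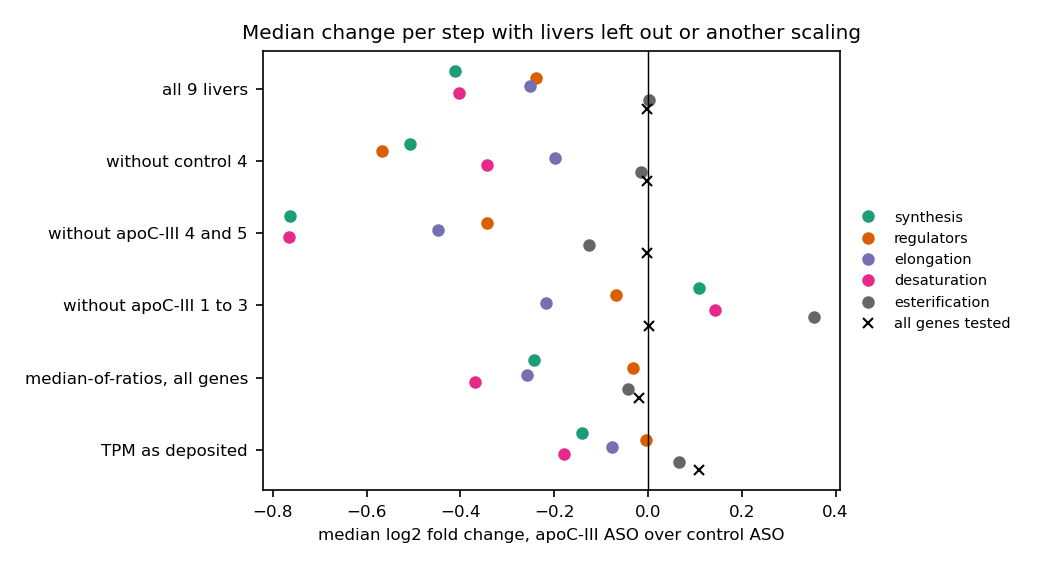
Median log2 fold change (horizontal, apoC-III ASO over control ASO) of the tested genes of each step, and of all genes tested (crosses), with all 9 livers, with livers left out and with other scalings. Synthesis and desaturation are at −0.41 and −0.40 with all livers, at −0.76 and −0.77 without apoC-III ASO replicates 4 and 5, and at 0.11 and 0.14 without replicates 1 to 3.

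Genes around the 35 were read from lists by role, and 0 of them passed limma's adjusted threshold. Of 9 tested acyl-CoA synthetase and NADPH genes, 7 were lower and 0 had an unadjusted p under 0.05, and the smallest p belonged to *Pgd* (0.65, SE 0.37), an NADPH-producing dehydrogenase, *Acsl5* (−0.31, SE 0.22) and *Idh1* (−0.34, SE 0.26). Of the 10 further elongation and desaturation genes only 4 reached the minimum for a test. All 4 were lower with 0 at an unadjusted p under 0.05, among them *Hacd1* (−0.30), *Fads6* (−0.25) and *Hacd3* (−0.21). Of 14 further glycerolipid genes, 11 were lower and 1 had an unadjusted p under 0.05. This was *Cds2*, whose enzyme takes phosphatidic acid away from TG toward phosphatidylinositol, at 57.2, 83.5, 117, 78 and 77.2 in apoC-III ASO livers and 51.5, 61.8, 37.1 and 60.7 in control ASO livers (0.63, SE 0.25, adjusted p = 0.876 in limma). Next came *Plpp3* (−0.32, SE 0.21) and *Cept1* (−0.32, SE 0.21). Of 9 genes of hepatic glucose and fructose metabolism, 7 were lower and 0 had an unadjusted p under 0.05. The smallest p belonged to the glucose transporter *Slc2a2* (−0.48, SE 0.27), the glycolytic isomerase *Gpi1* (−0.30, SE 0.20) and *Fbp1* (−0.40, SE 0.31), whose enzyme belongs to gluconeogenesis and opposes glycolysis. Of 17 further regulators, 6 were lower and 0 had an unadjusted p under 0.05, with *Nr1h2* (0.76, SE 0.45), *Irs2* (0.41, SE 0.27) and *Nr1h3* (−0.31, SE 0.22) first. Of 9 tested genes listed for FA oxidation and the fasting response (the oxidation list), 7 were lower and 0 had an unadjusted p under 0.05. *Cpt2* (−0.46, SE 0.29), *Pdk4* (0.91, SE 0.69) and *Angptl4* (−0.47, SE 0.38) came first, of which *Pdk4* and *Angptl4* do not encode enzymes of FA oxidation. Without apoC-III ASO replicates 1 to 3, only 6 of the 14 glycerolipid, 3 of the 9 glucose and fructose and 2 of the 9 genes of the oxidation list were lower. Without control ASO replicate 4, 4 of the 9 genes of the oxidation list were lower.

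The promoters of 4 members are printed, those of *Thrsp*, *Elovl6* and *Hsd17b12* for their values and that of *Fasn* for its role as the central synthase. *Thrsp* and *Elovl6* have the lowest log2 fold changes and the same 3 low livers. *Hsd17b12* is the 1 member of 34 without overlap on normalized TPM, a count near the share of all genes (1.83%). Each promoter is the RefSeq window on GRCm38.p6 from 250 bases before to 50 after the start: chr7:97417501-97417800 on the minus strand for *Thrsp*, chr3:129532136-129532435 on the plus strand for *Elovl6*, chr2:94157860-94158159 on the minus strand for *Hsd17b12* and chr11:120824498-120824797 on the minus strand for *Fasn*. They are written along the gene, and capitals mark CCAAT on either strand (ATTGG where it lies on the other strand). RefSeq's starts of *Thrsp*, *Elovl6* and *Hsd17b12* lie inside the GENCODE M21 gene bounds given above.
Thrsp: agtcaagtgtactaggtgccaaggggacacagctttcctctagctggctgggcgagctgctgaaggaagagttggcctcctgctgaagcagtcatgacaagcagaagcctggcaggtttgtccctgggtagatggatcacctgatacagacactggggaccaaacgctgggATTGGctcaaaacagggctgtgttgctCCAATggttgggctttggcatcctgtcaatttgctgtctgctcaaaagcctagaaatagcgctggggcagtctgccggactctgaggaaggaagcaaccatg
Elovl6: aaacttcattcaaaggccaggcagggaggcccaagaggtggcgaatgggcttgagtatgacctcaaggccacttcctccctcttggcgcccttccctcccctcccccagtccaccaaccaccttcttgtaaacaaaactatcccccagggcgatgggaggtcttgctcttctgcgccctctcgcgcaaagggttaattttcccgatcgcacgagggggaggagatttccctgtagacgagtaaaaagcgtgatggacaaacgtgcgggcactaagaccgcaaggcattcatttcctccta
Hsd17b12: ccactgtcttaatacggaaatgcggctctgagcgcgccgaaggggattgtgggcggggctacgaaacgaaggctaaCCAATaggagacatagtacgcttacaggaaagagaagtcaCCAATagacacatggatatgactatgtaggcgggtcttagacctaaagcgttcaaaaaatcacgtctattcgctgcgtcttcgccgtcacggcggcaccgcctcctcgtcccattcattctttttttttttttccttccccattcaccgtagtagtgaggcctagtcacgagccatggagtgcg
Fasn: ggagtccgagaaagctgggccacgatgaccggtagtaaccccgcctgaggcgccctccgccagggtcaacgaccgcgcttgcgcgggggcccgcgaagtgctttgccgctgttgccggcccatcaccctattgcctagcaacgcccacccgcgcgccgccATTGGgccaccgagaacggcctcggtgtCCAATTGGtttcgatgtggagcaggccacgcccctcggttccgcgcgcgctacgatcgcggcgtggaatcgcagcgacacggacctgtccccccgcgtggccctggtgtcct

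Windows were given for 28 of the 35 members (the others being *Dgat1*, *Dgat2*, *Elovl3*, *Fads1*, *Gpat4*, *Scd1* and *Scd2*), 39 windows in all, among 32851 windows of all genes. Both strands were searched, and CCAAT, which NF-Y binds in many lipid genes, was found in 19 of the 39 (48.7%) and in 37.4% of all windows. *Thrsp* had it at −79 and −52 from the start, *Hsd17b12* at −174 and −134, and *Fasn* at −90, −62 and −59, the last pair overlapping, while the *Elovl6* window held none. The E-box CACGTG, a sequence that USF and clock factors bind, was found in 5 of the 39 (12.8%) and in 7.15% of all windows, in *Elovl5*, *Lpin2*, *Lpin3*, *Mlxipl* and *Slc25a1*. The sterol regulatory element TCACNCCAC was found in 1 of the 39 (*Mlxipl*) and in 1.24% of all, and the D-box TTANGTAA, bound by DBP and its relatives, in 0 of the 39 and in 2.32% of all. The windows of *Thrsp*, *Elovl6*, *Hsd17b12* and *Fasn* held neither E-box, sterol regulatory element nor D-box, which speaks of these letters in these windows only.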

How the data were processed

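RNA sequencing had been done on 9 mouse livers (5 apoC-III ASO and 4 control ASO), grouped by the labels. The authors deposited TPM per gene, which keeps no read depth. The submitters' notes name kallisto 0.43.1 and GRCm38, whereas the study's methods name other counting tools, and which of them made these values is not known here. Nuclear protein-coding genes of GENCODE M21, which held 99.46% of all identifiers, were rescaled to 1000000 per liver and divided by median-of-ratios factors from 12256 genes, because 7SL and mitochondrial ribosomal RNA filled most of the deposited TPM in differing shares. Genes with a mean of at least 1 (11954 of 21780) were tested with limma 3.58.1 in R 4.3.3 (lmFit, eBayes with trend) on log2(value + 1), so changes of low genes are understated. Calls required a change over 1.5-fold with an adjusted p (Benjamini-Hochberg, over all genes tested) under 0.05. For *Apoc3* (normalized TPM) and single members (log2 values), group means were also compared by exact permutation, two-sided (scipy 1.17.1). The limma code was tested on simulated data with known fold changes. No set test was run.

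The members, lists and tests were chosen with earlier results of these data known, and lists are described by counts and medians. All 35 members are named, with each liver's value for *Fasn*, *Acaca*, *Scd1*, *Srebf1*, *Thrsp*, *Elovl3*, *Elovl6*, every member with an unadjusted p under 0.05, and in each step the smallest p, the largest change and the highest mean. From each list of other pathway genes up to 3 genes with the smallest p are named. Other genes (clock genes by liver, marker genes, *Anpep*) were picked after their values were seen. Of 28 alternatives, 4 were added after seeing the data: without apoC-III ASO replicates 1 to 3, without replicates 4 and 5, deposited TPM without control ASO replicate 4, and Mup genes left out of the scaling. The others vary the scaling, pseudocount, filter, eBayes options, weights, thresholds and livers. Promoter windows came from RefSeq (GRCm38.p6). Python 3.11.15, numpy 2.4.6, pandas 2.3.3 and matplotlib 3.10.9 were used.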

Additional observations from a re-analysis of the deposited data

Results flagged for a closer look

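Of 68 groups of 4 or 5 livers examined among the members, 2 held a liver whose gap to the nearest other exceeded Dixon's 95% critical value, which chance alone does for about 1 group in 20. *Acacb*, the mitochondrial acetyl-CoA carboxylase, was at 41.3 normalized TPM in apoC-III ASO replicate 5 and at 8.75 to 17.3 in the other 4 apoC-III ASO livers. *Mid1ip1*, the paralog of *Thrsp*, was at 6.73 normalized TPM in apoC-III ASO replicate 2 and at 14.7 to 17.5 in the other 4.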

How the results depend on the processing

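The members' log2 fold changes under the 28 alternatives numbered 927, of which 85 had another sign than the reported value and 0 were called by limma, where 1 to 12 members had an unadjusted p under 0.05. Alternatives that change only the filter, the eBayes options, the thresholds or the test keep the reported log2 fold changes. No sign could change there, so the share of changed signs is understated. The sign of 6 of the 34 tested members never changed (*Acaca*, *Fasn*, *Elovl6*, *Hsd17b12*, *Mid1ip1* and *Gpat3*). The cause of any change was not tested. Read depth is unknown in TPM, so the precision of low genes such as *Pnpla3*, *Scd2* and *Mogat1* cannot be stated. With single livers left out, all genes called ran from 1 to 3, the members at an unadjusted p under 0.05 from 1 to 10 (4 reported), and the lower regulators from 2 to 4, and the members whose sign changed had ranges of *Agpat2* −0.24 to 0.0784, *Agpat3* −0.000207 to 0.50, *Dgat1* −0.00677 to 0.23, *Elovl1* −0.17 to 0.16, *Elovl5* −0.22 to 0.0800, *Gpam* −0.19 to 0.0257, *Gpat4* −0.11 to 0.29, *Lpin3* −0.0307 to 0.54, *Mlxipl* −0.30 to 0.52, *Mogat1* −0.41 to 0.72, *Slc25a1* −0.0679 to 0.10 and *Srebf1* −0.46 to 0.32. Without apoC-III ASO replicates 1 to 3 the calls among all genes were 0 (limma, with 674 genes under an unadjusted p of 0.05), members at that p 2, members lower 14, of synthesis 3, of desaturation 1 and of esterification 2, and *Apoc3* was at −2.69 (adjusted p = 0.103). Reversed there were *Acacb* 0.11, *Acly* 0.16, *Me1* 0.44, *Srebf1* −0.00877, *Mlxipl* −0.13, *Thrsp* 0.0264, *Scd1* 0.0914, *Elovl1* −0.38, *Elovl2* 0.10, *Elovl3* −0.26, *Tecr* 0.0396, *Fads1* 0.19, *Fads2* 0.46, *Gpam* 0.11, *Lpin1* 0.54, *Lpin2* 0.37 and *Dgat2* 0.21. Without replicates 4 and 5, 4 genes were called, 12 members had an unadjusted p under 0.05, and the reversed values were *Slc25a1* −0.0456, *Elovl5* 0.0833, *Gpat4* −0.37, *Agpat3* −0.12 and *Dgat1* −0.0257.

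In TPM as deposited, where 27 members were tested, 11 genes were called, 2 members had an unadjusted p under 0.05, 3 elongation and 2 esterification genes were lower and *Apoc3* was no longer called (−2.62, limma, adjusted p = 0.104). The median of all genes was then 0.11, and reversed values were *Srebf1* −0.00426, *Elovl5* 0.22, *Tecr* 0.0473, *Agpat2* 0.0621, *Lpin2* 0.0151 and *Dgat2* 0.0718. Deposited TPM without control ASO replicate 4 gave 4 calls, 8 of 28 members at an unadjusted p under 0.05 (288 of 5269 genes) and 4 regulators lower (as were 4414 of the 5269 genes), with a median of all genes of −0.23, and reversed *Slc25a1* −0.18, *Srebf1* −0.69, *Mlxipl* −0.63, *Gpat4* −0.18 and *Dgat1* −0.0423. Rescaling without factors moved the median of all genes to 0.41, with 1 call and 8 members lower (3 of synthesis, 2 of elongation, 0 of desaturation and 1 of esterification), and reversed *Acly* 0.18, *Acss2* 0.0732, *Me1* 0.0502, *Scd1* 0.0650, *Scd2* 0.0832, *Elovl2* 0.0401, *Elovl5* 0.44, *Tecr* 0.23, *Fads1* 0.0653, *Fads2* 0.0124, *Gpam* 0.37, *Agpat1* 0.15, *Agpat2* 0.37, *Lpin2* 0.18 and *Dgat2* 0.31. Median-of-ratios factors over all genes reversed *Srebf1* −0.0328, and quantile normalization *Elovl1* −0.00662 and *Elovl5* 0.0280. Array weights gave 7 members at an unadjusted p under 0.05 (894 of 11954 genes) and 4 regulators lower, and reversed *Srebf1* −0.28, *Mlxipl* −0.0381, *Elovl5* 0.0693, *Gpat4* −0.0281 and *Agpat2* 0.0147. A single gene was called with Mup genes left out of the scaling, without a trend or without the filter on low values (1 each). The exact permutation test per gene called 0, with 619 genes and 1 member at an unadjusted p under 0.05 and *Apoc3* at −3.01, where the 126 splits allow no p under 0.0159.

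Whether replicate numbers pair the livers was not tested. The correlations of same-numbered deviations were 0.0658, 0.122, 0.0264 and 0.191, the last being the highest of all pairs. Those of differently numbered livers ran from −0.208 to 0.179. With the replicate number as a block, 3 genes were called, 4 members had an unadjusted p under 0.05 (933 of all genes), 23 were lower, 0 members were called and *Elovl5* 0.0783 and *Gpat4* −0.11 reversed. ApoC-III ASO replicate 5 has no control of the same number, so in this fit it adds nothing to the log2 fold changes. They equal those of the fit that leaves it out.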
